A study of Mus musculus with 14 samples.

Results

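Ephrin-A ligands and EphA receptors were followed through the olfactory epithelium of newborn mice in 2 experiments, one that silenced olfactory sensory neurons (OSNs) and one that exposed pups to an odor. The genes were chosen by symbol: 5 receptors (Epha3, Epha4, Epha5, Epha7 and Epha8) and 5 ligands (Efna1, Efna2, Efna3, Efna4 and Efna5). The EphA receptor genes Epha1, Epha2, Epha6 and Epha10 were not among them and are treated further below. All 10 symbols were found among the 51211 gene symbols of both tables of values. Ephrin-A ligands are held on the cell surface by a lipid anchor, and EphA receptors are tyrosine kinases that bind them on a neighboring cell. Binding can signal into both cells, and in growing axons it often causes repulsion. In the olfactory system ephrin-A and EphA proteins are known to be carried by OSN axons and to take part in sorting axons of different OSNs into separate glomeruli.

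The Kir2.1 experiment compared 3 Kir2.1 mice with 3 control mice. The Kir2.1 mice carried OMP-IRES-tTA together with tetO-Kir2.1-IRES-tauLacZ, so that the Omp locus, which is active in mature OSNs, drives a potassium channel that reduces firing. Their controls, littermates in the study's methods, carried OMP-IRES-tTA on 1 allele, so the driver was present in both groups. The PEA experiment compared 4 wild type pups kept with 2-phenylethylamine (PEA) from P0 to P5 with 4 wild type pups that were not exposed. All 14 mice were taken at postnatal day 5, and whole olfactory epithelium was used. The labels give C57BL/6 for all of them, whereas CD-1 is the strain of the odor-exposed pups in the study's methods. The Kir2.1 mice are also labeled Kir2.1-off, a name the study uses for mice in which the transgene had been shut down.

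Values are normalized counts, that is, read estimates per gene that the authors scaled to a common depth within each experiment. The depth of single libraries is not known. Kcnj2, which encodes Kir2.1, was 986 to 1274 in controls versus 17926 to 24193 in Kir2.1 mice. All 10 markers of mature OSNs were above 0 in every mouse. In the Kir2.1 mice 9 of these 10 markers lay below every control mouse, while 16.3% of all genes did not overlap between the groups in either direction. The summed value of the 10 markers was 98804 to 111802 in the Kir2.1 mice against 135692 to 149721 in their controls. For the PEA experiment the summed value was 32999 to 38133 in the exposed mice and 33485 to 38040 in the control mice. Some libraries carried more vomeronasal receptor RNA than the rest of their group. The mean log2 value of these receptors was 6.06 in Kir2.1 control mouse 1 and 2.42 to 2.51 in the other 5 mice. It was 3.92 to 5.76 in PEA control mice 1 to 3 and 5.32 in PEA-exposed mouse 1, against 1.43 to 1.71 in the other 4 mice.

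Epha5 and Epha7 showed the lowest values relative to control mice in the Kir2.1 experiment, and their promoters are shown for that reason. Epha5 (ENSMUSG00000029245) lies on the minus strand of GRCm38 chromosome 5, from 84054761 to 84417382, with 19 merged exons over 363 kb. Epha7 (ENSMUSG00000028289) lies on the plus strand of chromosome 4, from 28813131 to 28967499. The 250 bases before the annotated RefSeq start (GRCm38.p6) are printed 5′ to 3′ on the strand of the gene, at chr5:84417383-84417632 for Epha5 and chr4:28812881-28813130 for Epha7. Capitals mark TAATTA, a core motif of homeodomain factors.
Epha5: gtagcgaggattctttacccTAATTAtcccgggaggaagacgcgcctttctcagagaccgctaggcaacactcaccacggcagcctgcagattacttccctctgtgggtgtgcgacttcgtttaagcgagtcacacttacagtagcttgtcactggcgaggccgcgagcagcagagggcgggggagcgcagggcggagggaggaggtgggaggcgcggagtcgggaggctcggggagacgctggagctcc
Epha7: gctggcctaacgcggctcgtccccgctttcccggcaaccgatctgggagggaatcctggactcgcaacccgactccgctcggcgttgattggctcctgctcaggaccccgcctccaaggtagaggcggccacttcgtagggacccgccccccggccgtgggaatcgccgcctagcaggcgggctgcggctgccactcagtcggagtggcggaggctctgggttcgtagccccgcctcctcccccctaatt
Windows of 300 bases, which also held the first transcribed bases, were searched on both strands for 4 motifs in 13 promoters of the 10 genes. TAATTA was in 2 of the 13 (Epha5, 230 bases before the start, and Efna1) and in 5.29% of the 32851 promoters of the table. CCCNNGGG, the core of the Olf1/EBF site, was in 2 of 13 against 13.7% of all promoters. TGACG, a partial cAMP response element, was in 1 of 13 against 20.8%, and the full element TGACGTCA, which holds TGACG, was in 0 of 13 against 1.79%. The GC content of these windows was 64.3% for Epha5 and 67.0% for Epha7, with a median of 52.7% over all promoters.

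The 5 ligands outweighed the 5 chosen receptors in the control mice of the Kir2.1 experiment once values were divided by the length of the merged exons. Efna3 was highest at 2330 ± 121 normalized counts per kb (SD, n = 3). Efna5 followed at 374 ± 36.7, Efna4 at 298 ± 16.2, Efna1 at 229 ± 18.3 and Efna2 at 115 ± 7.93 per kb. All 5 ligands lay above all 5 receptors by this length. With the longest transcript in its place, Epha5 (149 per kb) exceeded Efna2 (115 per kb). By merged exons the ranges of neighboring ligands did not overlap. Among the receptors Epha7 (68.1 ± 7.60 per kb) and Epha5 (65.2 ± 6.81 per kb) did not differ beyond their spread, and Epha4 (37.4 ± 4.19), Epha3 (19.0 ± 2.21) and Epha8 (1.95 ± 1.05) followed in steps without overlap.

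The order was less clear in the control mice of the PEA experiment, whose libraries were made in another way. Efna3 was again highest, at 315 ± 24.2 per kb (SD, n = 4). Efna5 at 79.1 ± 29.0, Efna1 at 50.6 ± 8.01, Efna4 at 45.5 ± 6.06, Epha7 at 45.5 ± 3.22, Epha3 at 41.8 ± 11.1, Epha4 at 36.2 ± 3.71 and Epha5 at 29.6 ± 2.91 per kb formed a series in which each overlapped its neighbor. Efna2 lay below them at 8.20 ± 0.919 per kb, and Epha8 was at 0 in 3 of the 4 control mice. The length chosen for Epha5 matters most: with its longest transcript it ranked 5 in place of 7 in the Kir2.1 control mice and 3 in place of 8 in the PEA control mice. Levels are not compared between the experiments.

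**Figure D1:**
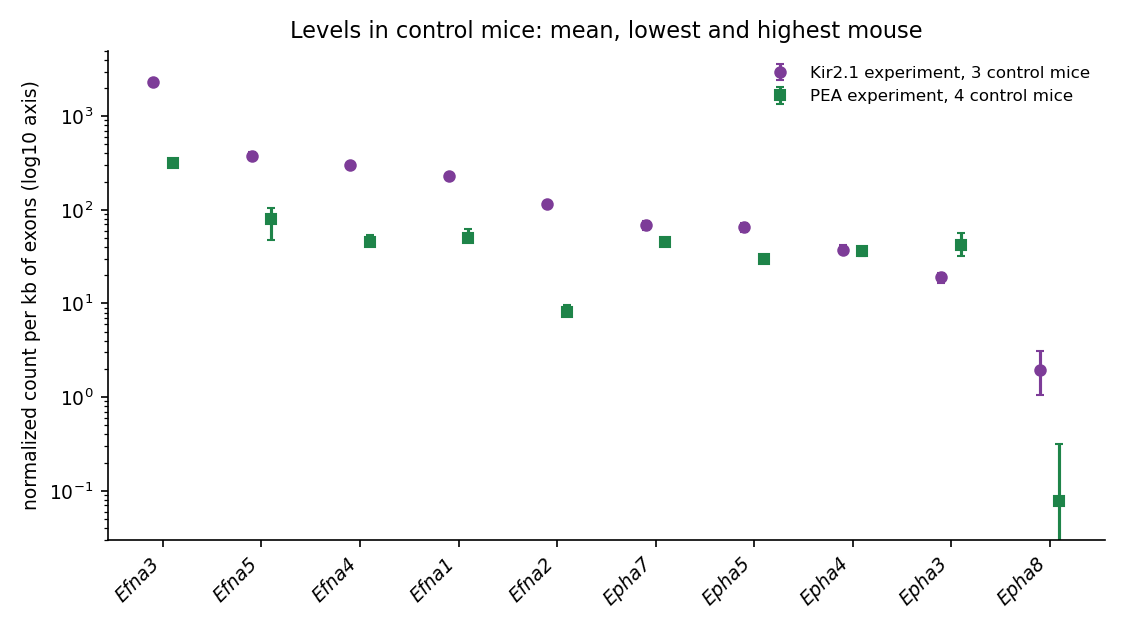
Normalized count per kb of merged exons (log10 axis) of the 10 genes in the 3 control mice of the Kir2.1 experiment (circles) and the 4 control mice of the PEA experiment (squares), with the mean as the symbol and the lowest and highest mouse as whiskers (the whisker of Epha8 in the PEA experiment runs to 0 and leaves the axis). Efna3 is highest in both, at 2330 and 315 per kb, and Epha8 is lowest.

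Epha5, a receptor of ephrin-A ligands on OSN axons, was the only one of the 9 tested genes that passed in the Kir2.1 mice, where it fell. Its normalized count was 981, 1086 and 1208 in controls 1 to 3 versus 584, 541 and 514 in Kir2.1 mice 1 to 3. The highest Kir2.1 mouse lay well below the lowest control mouse. The log2 fold change, on the scale of log2(normalized count + 1), was -0.99 (SE 0.11, 95% confidence interval -1.24 to -0.75, adjusted p = 0.0180, limma, Benjamini-Hochberg adjusted over 19807 genes). In this test 0.353% of all genes passed, and 1 of the 9 chosen genes that were tested did. The call was lost with each mouse left out except control mouse 1 (adjusted p between 0.0479 and 0.109), and it was also lost once the replicate numbers entered as a block (adjusted p = 0.106), with the log2 fold change at -1.07 to -0.92 throughout. Without control mouse 1, the library rich in vomeronasal receptor RNA, it was -1.07. In bulk tissue, fewer OSNs and less RNA per OSN cannot be told apart.

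Epha7, which encodes a further EphA receptor, was 659, 755 and 606 in controls versus 488, 349 and 332 in Kir2.1 mice. The groups did not overlap, and Kir2.1 mouse 1 was nearest to the controls. The log2 fold change was -0.80 (SE 0.17, 95% confidence interval -1.20 to -0.41, unadjusted p = 0.00183, adjusted p = 0.143 by limma), so that it did not pass after adjustment. Epha5 and Epha7 were thus the 2 of 9 genes with an unadjusted p under 0.05, a threshold that 11.1% of all genes met. They were also the 2 of 9 whose groups did not overlap, which was so for 16.3% of all genes.

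The other receptors overlapped between the groups. Epha4, a receptor that binds both ephrin classes, was 339, 274 and 292 in controls versus 368, 324 and 355 in Kir2.1 mice (log2 fold change 0.21, SE 0.12, 95% confidence interval -0.07 to 0.50). Epha3 was 144, 182 and 168 in controls versus 231, 197 and 140 in Kir2.1 mice, where mouse 3 lay below all controls and the other two above them (log2 fold change 0.18, 95% confidence interval -0.31 to 0.67). This fold change ran from 0.020 without Kir2.1 mouse 1 to 0.38 without Kir2.1 mouse 3. Epha8 had a mean of 8.47 over the 6 mice, below the minimum of 10, and was not tested. Its values were 4.93 to 14.6 in controls versus 7.39 to 8.06 in the Kir2.1 mice.

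None of the 5 ligands passed the test in the Kir2.1 mice, and all of them overlapped between the groups. Efna5, which encodes ephrin-A5 and is known to be expressed by OSNs in a pattern opposite to that of Epha5, was 1390, 1460 and 1674 in controls versus 1530, 1590 and 1678 in Kir2.1 mice. Its log2 fold change was 0.09 (SE 0.09), and the 95% confidence interval of -0.13 to 0.30 does not reach the size of the difference in Epha5. Efna3, the most abundant ligand, was 5441, 5571 and 6003 in controls versus 5284, 5030 and 5534 in Kir2.1 mice (log2 fold change -0.10, 95% confidence interval -0.27 to 0.06). Efna4 was 447 to 493 in controls versus 448 to 504 in Kir2.1 mice (log2 fold change -0.01, 95% confidence interval -0.24 to 0.22). Efna1 was 380 to 441 versus 359 to 464 (log2 fold change 0.01, 95% confidence interval -0.30 to 0.32), and Efna2 230 to 264 versus 231 to 323 (log2 fold change 0.11, 95% confidence interval -0.25 to 0.48). The direction of Efna1 flipped under quantile normalization and median centring. Over the 9 tested genes the median log2 fold change was 0.01, the same as over all genes at this precision, with -0.31 for the 4 receptors and 0.01 for the 5 ligands.

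**Figure D2:**
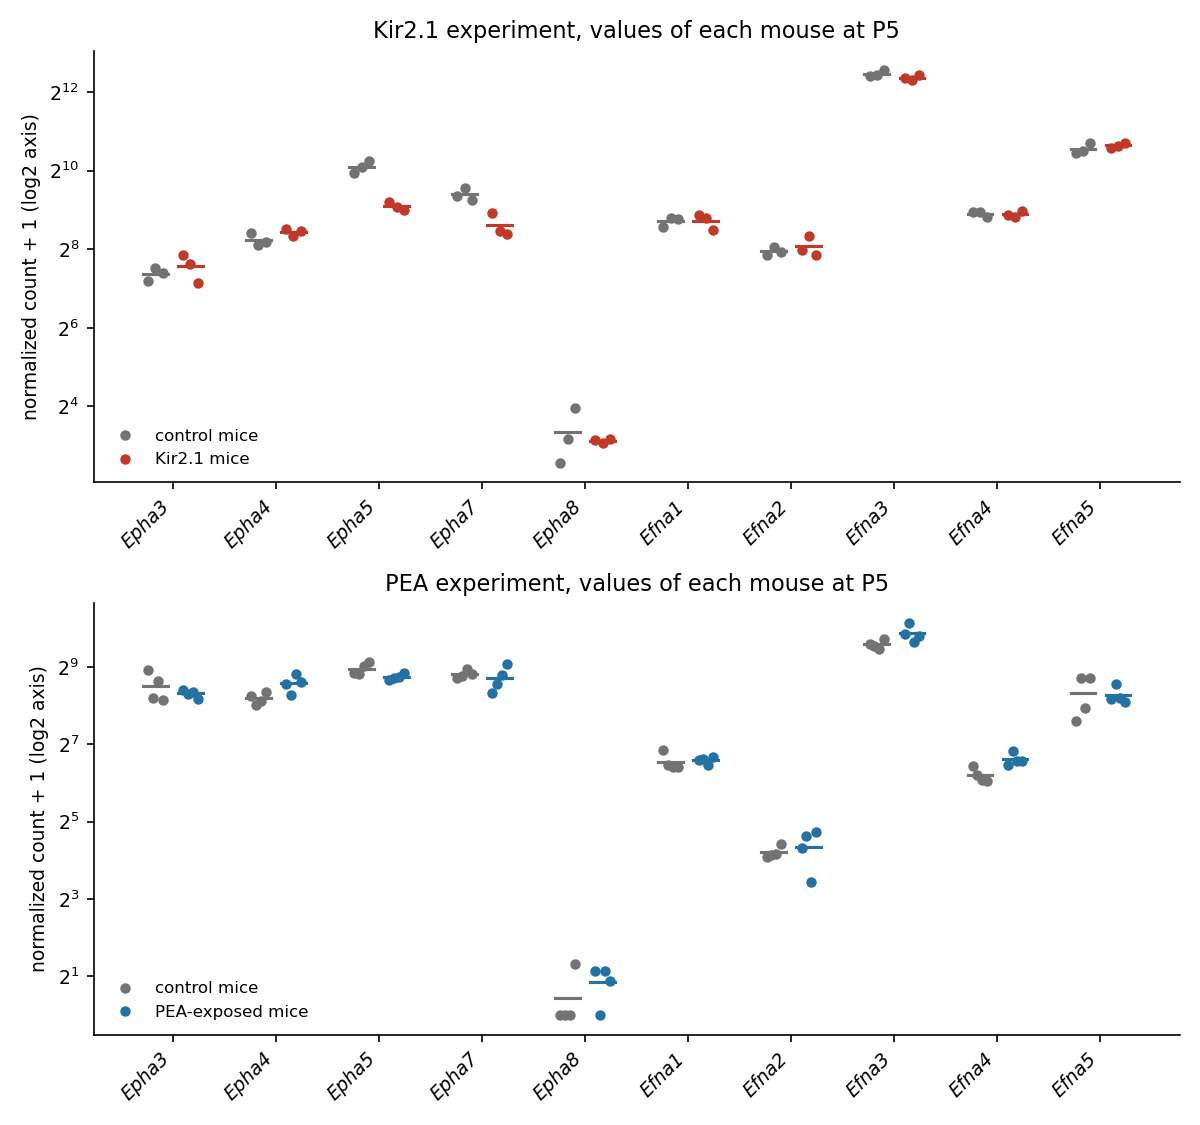
Normalized count + 1 of each mouse (points, log2 axis) and the arithmetic mean of normalized count + 1 of each group (bars) for the 10 genes in the Kir2.1 experiment (upper panel, 3 against 3 mice) and the PEA experiment (lower panel, 4 against 4 mice). Epha5 and Epha7 of the Kir2.1 mice lie below those of their controls, at 514 to 584 against 981 to 1208 and at 332 to 488 against 606 to 755, while the ligands overlap.

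In the PEA-exposed mice none of the 9 tested genes passed after adjustment, as did 0.179% of all 17322 genes. Epha4, Efna3 and Efna4 had an unadjusted p under 0.05 in the direction of higher values, which makes 3 of 9. Of all genes 15% met that threshold and 8.93% met it with higher values. Epha4 was 305, 258, 278 and 327 in controls 1 to 4 versus 375, 306, 450 and 390 in exposed pups 1 to 4. Exposed mouse 2 fell within the range of the controls and the others lay above it (log2 fold change 0.37, 95% confidence interval 0.07 to 0.68, unadjusted p = 0.0219, adjusted p = 0.252 by limma).

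Efna4, a ligand with a short gene on chromosome 3, was 86.3, 73.4, 66.5 and 65.0 in controls versus 86.8, 113, 93.2 and 93.6 in the exposed mice. The groups did not overlap, but control mouse 1 and exposed mouse 1 were nearly equal (log2 fold change 0.41, 95% confidence interval 0.05 to 0.76, unadjusted p = 0.0288, adjusted p = 0.279 by limma). Efna4 was the 1 gene of 9 without overlap, and 9.32% of all genes showed none. Efna3 was 767, 742, 710 and 848 in controls versus 926, 1129, 804 and 893 in exposed pups, where only mouse 3 lay within the range of the controls (log2 fold change 0.28, 95% confidence interval 0.02 to 0.55, unadjusted p = 0.0383, adjusted p = 0.307 by limma).

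Efna1, Efna3 and Efna4 lie next to each other on the minus strand of chromosome 3, between 89271733 and 89338028. The antisense gene Gm15998 shares 10.5% of the 31-base words of Efna3, and the antisense gene 4731419I09Rik shares 8.80% of those of Efna4. Gm15998 lay at 0 to 3.09 in the PEA experiment and 4731419I09Rik at 21.3 to 34.3. In the unstranded Kir2.1 libraries, where they lay at 9.74 to 14.5 and at 124 to 156, reads of the shared parts cannot be told apart by strand. The other 8 genes shared under 1% of their words with any gene.

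Epha5 was 462, 449, 515 and 554 in the PEA control mice and 403, 417, 425 and 460 in the exposed mice. The groups overlapped through exposed mouse 4, and the difference did not pass (log2 fold change -0.21 with SE 0.11, 95% confidence interval -0.45 to 0.02, adjusted p = 0.381 by limma). Epha7 was 419 to 492 in controls versus 319 to 534 in exposed pups, a wider spread on both sides (log2 fold change -0.13, 95% confidence interval -0.47 to 0.22). Epha3 was 487, 294, 394 and 280 in controls versus 340, 315, 327 and 288 in exposed pups (log2 fold change -0.16, 95% confidence interval -0.55 to 0.23, and -0.0074 without control mouse 1). Efna5 was 194, 420, 244 and 417 in controls versus 289, 377, 294 and 271 in exposed pups (log2 fold change 0.02, 95% confidence interval -0.53 to 0.56), and its direction flipped under quantile normalization and median centring. For both of these genes the control mice spread more widely than the exposed mice, with Efna5 high in control mice 2 and 4 and Epha3 high in control mice 1 and 3.

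Efna1 was 84.1 to 114 in PEA controls versus 88.1 to 100 in exposed pups. Its log2 fold change was 0.05 (95% confidence interval -0.28 to 0.39) and flipped under quantile normalization. Efna2 was 16.1 to 20.4 versus 9.85 to 25.5, the lowest values of the tested ligands (log2 fold change 0.08, 95% confidence interval -0.66 to 0.81). Epha8 was not tested, with values of 0 to 1.48 and 0 to 1.21. The median log2 fold change was 0.05 over the 9 tested genes and -0.02 over all genes.

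The 2 effects were then set against each other by an interaction term over all 14 mice, since no control mouse is shared. Epha5 was lower in the Kir2.1 mice by more than in the PEA-exposed mice: the difference between its log2 fold changes was -0.78 (SE 0.15, 95% confidence interval -1.10 to -0.46, adjusted p = 0.0401 by limma over 16705 genes). It was the 1 gene of 9 that passed, as did 0.443% of all genes. The call was lost with each mouse left out except PEA control mouse 4 (adjusted p between 0.0211 and 0.118), and also without the filter on low values (0.0529), without the trend (0.0579) and with the replicate block (0.113). For Epha7 this difference was -0.68 (SE 0.24, limma, unadjusted p = 0.0143, adjusted p = 0.247), Efna3 of -0.38 (adjusted p = 0.288) and Efna4 of -0.41 (adjusted p = 0.369). The libraries of the experiments differ in selection of RNA, read length and strandedness, and the part of these differences in the result was not tested.

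**Figure D3:**
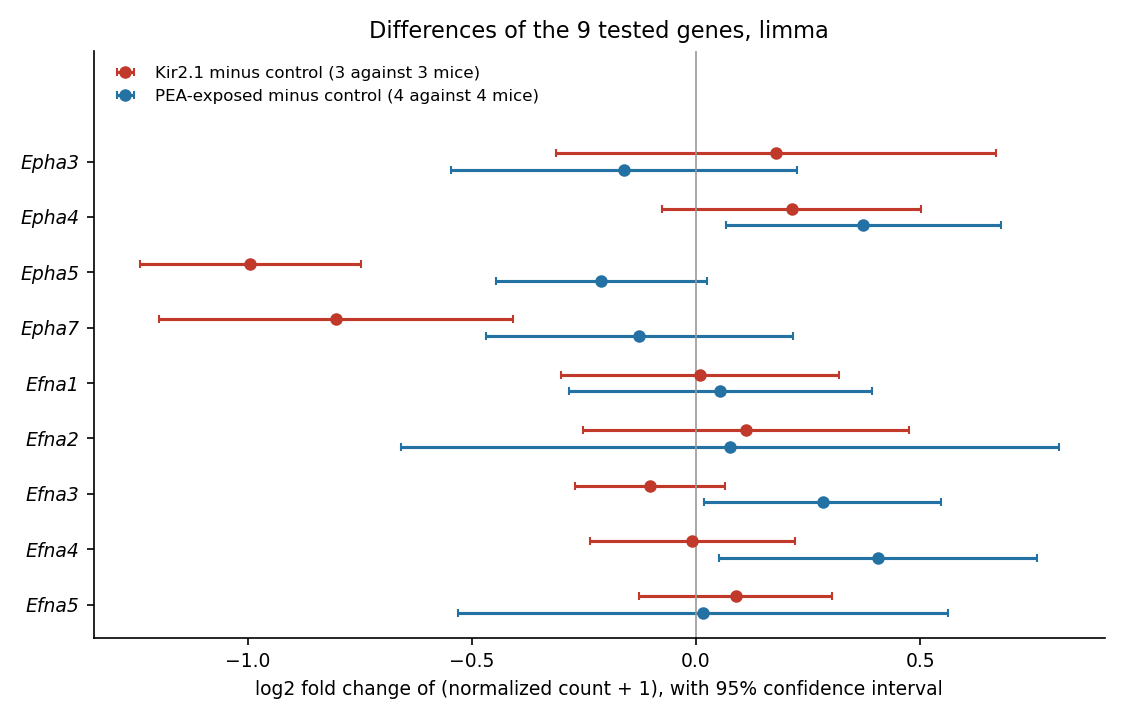
Log2 fold change of normalized count + 1 (x axis) with its 95% confidence interval by limma for the 9 tested genes, Kir2.1 against control mice in red and PEA-exposed against control mice in blue. The interval of Epha5 in the Kir2.1 mice, -1.24 to -0.75, does not meet that in the PEA-exposed mice, -0.45 to 0.02, while the intervals of Efna5 both span 0.

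Efna5 and Epha5 were also compared within each mouse, as a ratio of normalized count + 1. The group difference in this log2 ratio follows from the log2 fold changes of both genes given above, so it is no separate result. The log2 ratio of Efna5 to Epha5 was 0.43 to 0.50 in controls of the Kir2.1 experiment versus 1.39 to 1.71 in Kir2.1 mice, a difference of 1.08 without overlap that was also 1.08 without the added 1. The exact permutation test gave p = 0.1, the smallest value that 3 against 3 mice allow. With PEA exposure the groups overlapped, as the log2 ratio was -1.25 to -0.10 in controls versus -0.76 to -0.15 in the exposed mice, a difference of 0.23 (p = 0.514, exact permutation test, two-sided). It ran from 0.046 without control mouse 1 to 0.43 without control mouse 2, while the difference in the Kir2.1 experiment ran from 1.00 to 1.16 with each mouse left out.

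The composition of the receptors, as the share of each in their summed level per kb, also differed between control and Kir2.1 mice. Epha5 made up 31.7% to 37.6% of the sum in controls versus 22.1% to 24.5% in the Kir2.1 mice, and Epha7 31.9% to 38.6% and 26.6% to 31.2%. Epha4 made up 17.2% to 22.8% and 28.9% to 34.9%, and Epha3 8.98% to 10.6% and 12.8% to 17.2%. None of these 4 overlapped by merged exons, but shares of one sum are bound to each other. Lower shares of Epha5 and Epha7 thus require higher ones elsewhere. Both the percentages and the lack of overlap depend on the length chosen. Shares by the longest transcript were not computed, although Epha5 was then at 149 per kb in Kir2.1 controls, against 65.2 by merged exons. No share over all genes is at hand for such a comparison. The normalized counts of Epha3 and Epha4 themselves overlapped between the groups. Among the PEA mice Epha4 made up 21.5% to 26.7% in controls versus 27.6% to 34.1% in the exposed mice, and the other receptors overlapped. Among the ligands Efna3 made up 68.9% to 70.2% of the sum in Kir2.1 controls versus 65.9% to 68.7% in Kir2.1 mice. The normalized counts of Epha4 in the PEA experiment and of Efna3 in the Kir2.1 experiment overlapped between the groups.

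**Figure D4:**
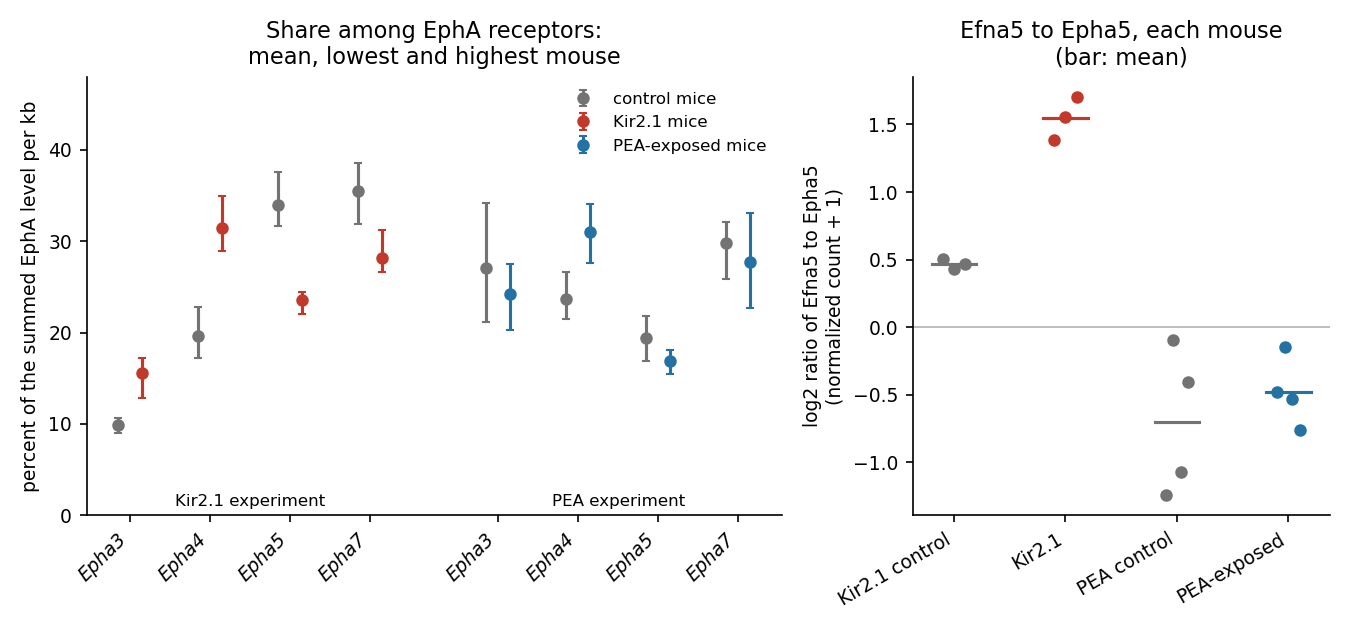
Left: percent of the summed EphA level per kb taken by Epha3, Epha4, Epha5 and Epha7 (Epha8 is under 2% and is not drawn), with the mean as the point and the lowest and highest mouse as whiskers. Right: log2 ratio of Efna5 to Epha5 (normalized count + 1) in each mouse (points) with the group mean (bars), which is 0.47 in controls of the Kir2.1 experiment versus 1.55 in Kir2.1 mice.

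Because markers of mature OSNs were lower in the Kir2.1 mice, each gene was set against them in the same mouse. The mean log2 value of 8 markers (Gnal, Adcy3, Cnga2, Cnga4, Ano2, Stoml3, Rtp1 and Rtp2) was 13.4 ± 0.07 (SD, n = 3) in controls versus 13.0 ± 0.07 in the Kir2.1 mice, a difference of -0.42. After this mean was subtracted, Epha5 was still lower in each of the 3 Kir2.1 mice than in any control mouse, at -4.09 to -3.77 against -3.42 to -3.25 on the log2 scale, a difference of -0.58 (p = 0.1 by the exact permutation test, the smallest possible), and 1.13% of all genes lay below in the same way. It lay below the controls without overlap also with Omp and Slc17a6 added to the markers (-0.52, against 0.959% of all genes), with markers of immature neurons (-0.94, against 5.21%) and with Gnal alone (-0.58, against 0.762%). Epha7 overlapped, with a difference of -0.39 (p = 0.2, exact permutation test). Leaving out 1 mouse moved this difference between -0.59, without Kir2.1 mouse 1 (p = 0.1, exact permutation test), and -0.24, without Kir2.1 mouse 3.

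The same subtraction placed 6 of the 9 genes above all control mice, a share near the 60.8% of all genes that it placed there. Efna5 differed by 0.51, Efna3 by 0.31, Efna4 by 0.41, Efna1 by 0.43, Efna2 by 0.53 and Epha4 by 0.63, each with p = 0.1 by the exact permutation test. These genes were near their control values before the subtraction, and the marker mean itself had moved by -0.42. With Gnal alone as the reference, which itself differed by -0.41, only Efna5 of the 9 genes lay above all controls, against 23% of all genes. Of the 9 genes 7 overlapped. With markers of immature neurons as the reference, whose own mean differed by -0.06, each of these 6 overlapped with the controls, while Epha7 lay below them (-0.75). Some markers of other cell types also did not overlap between the groups, which was so for 16.3% of all genes in either direction. Both red blood cell markers, 2 of 6 stroma markers, 2 of 5 endothelium markers and 1 each of 5 immune, 6 ensheathing glia and 5 ciliated cell markers lay above all control mice. Trpc2, 1 of 3 vomeronasal neuron markers, and Tbr1, 1 of 5 olfactory bulb neuron markers, lay below. The part of these cell types in the values of the ligands and receptors was not tested.

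Of the 10 markers of mature OSNs in the PEA experiment, Omp lay above and Cnga2 below all control mice, and 8 overlapped. The mean of the 8 reference markers, which include Cnga2 and Gnal but not Omp, differed by -0.07 (p = 0.286, exact permutation test). Relative to it Efna3 was higher in all 4 exposed mice than in any control mouse, by 0.36 (p = 0.029, exact permutation test, the smallest that 4 against 4 mice allow and unadjusted over the 9 genes). This was 1 of 9 genes, and 7.65% of all genes lay above in the same way. With Omp and Slc17a6 added, Efna3 overlapped (p = 0.0571, exact permutation test). Epha4 differed by 0.45 (p = 0.0857) and Efna4 by 0.48 (p = 0.0571), both with overlap by the same exact permutation test. Gnal itself differed by -0.37 (p = 0.0571, exact permutation test), which raises every value set against it. Against Gnal alone, Epha4 (0.74), Efna3 (0.65) and Efna4 (0.78) all lay above every control mouse, as did 21.3% of all genes. With markers of immature neurons as the reference all 9 genes overlapped. Of other cell types, 2 of 6 sustentacular cell markers lay above and 2 of 6 stroma markers below all control mice. Of all genes 9.32% did not overlap between the groups, in either direction. The part of these cell types in the values above was not tested. Epha5 differed by -0.14 (p = 0.257, exact permutation test).

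**Figure D5:**
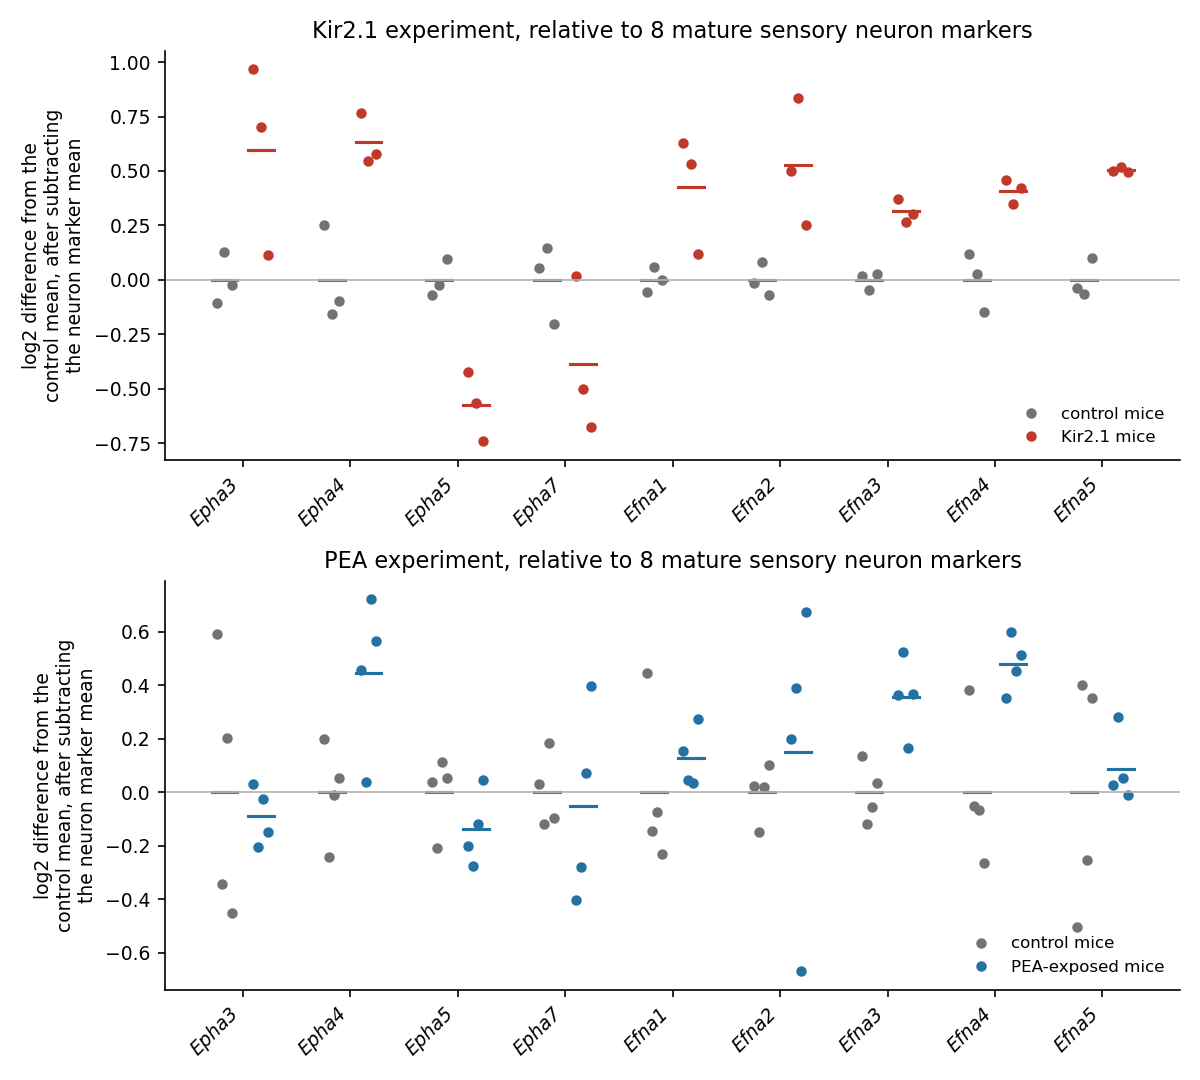
Log2(normalized count + 1) of each gene minus the mean of 8 mature OSN markers of the same mouse, drawn as the difference from the control mean (y axis, log2 units), for each mouse (points) with the group mean (bars). In the Kir2.1 experiment (upper panel) Epha5 stays below the controls by 0.58 on average and the 5 ligands lie above them by 0.31 to 0.53, in the direction in which 60.8% of all genes lie above. In the PEA experiment (lower panel) Efna3 is the only gene without overlap.

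The rest of the Eph and ephrin genes gave no call. Of 12 further members (Epha1, Epha2, Epha6, Epha10, Ephb1, Ephb2, Ephb3, Ephb4, Ephb6, Efnb1, Efnb2 and Efnb3), 11 were tested in the Kir2.1 experiment and 0 passed by limma, with 0 at an unadjusted p under 0.05. Their log2 fold changes ran from -0.27 to 0.69, with a median of 0.13. After PEA exposure 10 were tested and 0 passed, and 3 had an unadjusted p under 0.05 with higher values, against 8.93% of all genes. Ephb6, a receptor without kinase activity, had 35.5 to 126 in controls versus 91.6 to 161 in exposed pups (log2 fold change 1.16 with SE 0.35, limma adjusted p = 0.181). Ephb4 had 316 to 365 and 398 to 470 (log2 fold change 0.34, adjusted p = 0.182), and Epha1 had 116 to 158 and 150 to 180 (log2 fold change 0.33, adjusted p = 0.311).

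Of 22 genes for signaling partners of Eph receptors and ephrins, all were tested in both experiments and 0 passed in either by limma. In the Kir2.1 mice 3 of the 22 had an unadjusted p under 0.05, a share near the 11.1% of all genes. Anks1b, an adaptor of the family that binds EphA receptors, was 569 to 1186 in controls versus 269 to 565 in Kir2.1 mice (log2 fold change -1.05 with SE 0.36, limma adjusted p = 0.335). Vav2, a guanine nucleotide exchange factor, had a log2 fold change of -0.23, and Inppl1, a lipid phosphatase, one of 0.23. In the PEA-exposed mice 4 of the 22 had an unadjusted p under 0.05, likewise near the 15% of all genes. These were Rock2, a protein kinase (-0.34), Rasa1, a GTPase-activating protein (-0.39), Vav2 (0.34) and the adaptor Nck2 (0.39), with adjusted p between 0.144 and 0.307 by limma. The median over the 22 genes was 0.01 in the Kir2.1 mice and -0.10 in the PEA-exposed mice.

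For each gene with an unadjusted p under 0.05 in either experiment, the 3 genes of the most similar pattern were taken by the root mean square difference of log2 values over the 14 mice, each centered on its control mice, among 16705 genes. For Epha5 they were Slc8a1 (0.11), which encodes a sodium/calcium exchanger, Slc24a2 (0.16), which encodes a potassium-dependent one, and OR5BS1P (0.17), against a median of 0.55 over all genes. Slc8a1 had log2 differences of -1.02 in the Kir2.1 mice and -0.19 in the PEA-exposed mice. For Epha7 they were Mfsd4b1 (0.18), Epha5 itself (0.20) and Adgrb3 (0.21), which encodes an adhesion receptor of neurons, against a median of 0.50. For Efna3 they were Ppp1r9b (0.05), Rrp36 (0.06) and Rnf41 (0.07), for Efna4 Cog4 (0.06), Prelid1 (0.07) and Nmral1 (0.07), and for Epha4 2610528J11Rik (0.10), Tspo (0.11) and Clk3 (0.12), against medians of 0.33, 0.36 and 0.37. These distances are a description over 14 mice, in which the compared genes were read from the same libraries, with no test.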

How the data were processed

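Total RNA of whole olfactory epithelium was sequenced from 14 mice, by poly-A selection with 40 bp single-end unstranded reads in the Kir2.1 experiment and by ribosomal RNA depletion with stranded 150 bp reads in the PEA experiment. According to the study's methods the authors estimated reads with Salmon 1.3.0 (GRCm38, Ensembl release 100), imported them with tximport and normalized them with DESeq2 1.30.0, each experiment alone. The deposited values are this normalized signal per gene, called normalized counts, and not whole reads. At most 35.9% of low values were whole multiples of the commonest low value, so reads were not recovered, no count test was run, and depth and its precision are unknown. A reverse-strand setting is described for every sample, and its part in the unstranded values was not tested.

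Tests covered genes whose values averaged 10 or more in the experiment at hand and were run on log2(value + 1), which understates changes of low genes, with limma 3.58.1 in R 4.3.3 (mean-variance trend, Benjamini-Hochberg adjustment, threshold 0.05), after the code was tested on simulated data. Exact permutation tests were two-sided. Python 3.11.15, numpy 2.4.6, pandas 2.3.3 and matplotlib 3.10.9 were used. Exon lengths came from GENCODE vM21. Groups came from the labels. Nothing says that mice of a group came from separate litters, so p-values measure the spread between mice only. All members were named, genes of the partner list at an unadjusted p under 0.05, and 3 genes of like pattern. The members and lists were chosen with earlier results of these data known. The alternatives (other pseudocounts of 0.5 and 5, filters, moderation, scalings, weights, covariates, replicate block, each mouse left out, other references and lengths) stand at the end. Protein sequences were not used here.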

Additional observations from a re-analysis of the deposited data

Results flagged for a closer look

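The effects on Epha5 differed between the experiments by -0.78 on the log2 scale, by the interaction term given above. Among the 20 groups of 4 mice in which an outlying mouse was looked for (10 genes in 2 groups of the PEA experiment), 2 held one by Dixon's criterion, and chance alone flags about 5% of groups. Efna1 was 114 in PEA control mouse 1, while the other 3 control mice lay between 84.1 and 87.3. Epha8 was 1.48 in PEA control mouse 4 and 0 in the other 3 control mice, where single reads decide the value.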

How the results depend on the processing

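The limits are few mice, unknown depth and the loss of the Epha5 call under several settings. Its adjusted p (limma) in the Kir2.1 mice was 0.0887 without a trend, 0.106 with the replicate block and 0.05003 with the vomeronasal covariate, and that of its difference between the experiments was 0.0529 without a filter, 0.0579 without a trend and 0.113 with the replicate block. In the Kir2.1 mice 70 genes passed in the reported fit, against 20 without a trend, 9 with the replicate block, 22 with the vomeronasal covariate, 171 at a threshold of 0.10 and 23 to 44 with each mouse left out. Of the 9 tested members 0 passed without a trend, with the replicate block and with the vomeronasal covariate, and 0 to 1 with each mouse left out. In the PEA experiment 31 genes passed, against 52 without a filter, 117 with array weights, 19 with the vomeronasal covariate, 128 at 0.10 and 19 to 43 with each mouse left out. For the difference between the effects 74 genes passed, against 47 at a mean of at least 50, 136 with weights by experiment, 18 with the replicate block and 29 to 161 with each mouse left out, and 0 members passed without a filter, without a trend and with the block. Same-numbered mice are not stated to be pairs. In the Kir2.1 experiment they were alike in Xist, an RNA of female cells. It was 13216 and 11955 in control mice 1 and 2, 14299 and 13033 in Kir2.1 mice 1 and 2, and 3.02 and 22.1 in the mice numbered 3. The replicate block there thus also separates mice by Xist, and the part of sex was not tested. The residuals of same-numbered mice had correlations of -0.058, -0.011 and 0.16 in the Kir2.1 experiment. In the PEA experiment these were 0.13, -0.020, -0.051 and 0.10. The causes of these shifts were not tested.

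Signs flipped only for differences that had not passed. In the Kir2.1 mice Efna1 was -0.039 under quantile normalization, -0.030 under median centring and -0.059 with the vomeronasal covariate, and Efna4 was 0.013 with that covariate. In the PEA experiment Efna1 was -0.013 under quantile normalization, Efna2 -0.044 with the Xist covariate, and Efna5 -0.024 under quantile normalization, -0.035 under median centring, -0.14 with the vomeronasal covariate and -0.013 with the Xist covariate. With each mouse left out, the Kir2.1 values ran from -0.063 to 0.12 for Efna1, -0.030 to 0.21 for Efna2 and -0.054 to 0.032 for Efna4. The PEA values ran from -0.076 to 0.35 for Efna2 and -0.20 to 0.17 for Efna5. Their differences ran from -0.15 to 0.069 for Efna1, -0.24 to 0.19 for Efna2 and -0.085 to 0.28 for Efna5. Relative to neuron markers, Efna3 was -0.046 against immature markers in the Kir2.1 mice. In the PEA experiment Efna5 was -0.030 against these, and against Gnal alone Epha3 was 0.21, Epha5 0.16 and Epha7 0.25. There the range with each mouse left out was -0.24 to 0.11 for Epha3, -0.20 to 0.063 for Epha7, -0.026 to 0.42 for Efna2 and -0.079 to 0.22 for Efna5.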

Other observations

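In the Kir2.1 mice the values of Kcnj2 were 17926, 18530 and 24193 in mice 1 to 3, and those of Epha5 were 584, 541 and 514 in the same order. Kir2.1 mouse 3 also had the lowest Epha3 (140), Efna1 (359) and Efna2 (231) of the 3 Kir2.1 mice and the highest Efna3 (5534), Efna4 (504) and Efna5 (1678). It differed from Kir2.1 mice 1 and 2 in Xist as well, at 22.1 against 14299 and 13033. Control mouse 3, with Xist at 3.02, had the highest Kcnj2 (1274) and the highest Epha5 (1208) of the controls. With 3 mice no relation between these values can be tested.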
